A study of Mus musculus with 8 samples.

Results

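The end joining genes of class switching are 10 genes whose products seal or steer the DNA double-strand breaks that B cells make when they change antibody class: Lig4, Xrcc4, Xrcc5, Xrcc6, Prkdc, Nhej1, Dclre1c, Trp53bp1, Rif1 and Poll. They were taken as every probe set, a group of short oligonucleotides on the array, whose single gene symbol is 1 of these names. This gave 20 of the 45037 probe sets on the arrays and 9 of the 10 genes, and all 9 were bright enough to test. Dclre1c, which encodes the nuclease Artemis, had no probe set of its own name and was not analysed here.

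RNA came from germinal centre B cells of C57BL/6 mice, gated as B220+CD38-CD95+ cells from lymph nodes taken 12 days after an injection of NP-KLH in alum under the skin. No group carried an altered allele or a further treatment. Each zone was sampled by 4 arrays, called biological replicates in the labels, which do not say how many mice gave a sample or whether mice were pooled. If samples of a zone do not come from separate animals, the p-values measure only the spread between these samples.

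In a germinal centre, B cells divide and mutate their antibody genes in the dark zone and compete for antigen and T cell help in the light zone. Class switching joins a break in an early switch region of the heavy chain locus to a break in a later one. In classical nonhomologous end joining, the ring of Ku70 and Ku80 (Xrcc6 and Xrcc5) grips each end and recruits the kinase DNA-PKcs (Prkdc). The ligase complex of Lig4, Xrcc4 and XLF (Nhej1) then seals the ends, with gaps filled by polymerases such as polymerase lambda (Poll). Upstream, 53BP1 (Trp53bp1) and its effector RIF1 hold back the resection of broken ends and are required for efficient switching.

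In the labels the light zone gate reads CXCR4 high and CD83 low, the reverse of the usual definition, so the zone named in the title decided the group of each array. The mRNA went with the titles and not with the gate: Cd83 had a log2 difference, dark zone minus light zone, of -2.32 and Cxcr4 of 0.96. These genes check the labels only. Of 11 B cell and germinal centre markers, 9 had a probe set and all 9 were above the filter on dim probe sets, an intensity of 27.8. Markers of other cells were mostly below it: 10 of 16 myeloid, 8 of 10 stromal and 5 of the 9 measured T cell markers. Among the 6 myeloid genes above it were both lysozyme genes. Lyz1 lay between 26.97 and 90.1 in light zone arrays and between 154 and 1152 in dark zone arrays, and Lyz2 between 37.7 and 89.1 and between 128 and 824. Csf1r was also higher in the dark zone (0.40), Cd68 was lower there (-0.40, limma adjusted p = 0.0039), and Adgre1 (0.07) and Ccr2 (-0.07) did not pass. The summed level of the myeloid list was 386 to 500.5 in light zone arrays and 607 to 2343 in dark zone arrays. That of the T cell list was 531 to 579 and 669.8 to 858, most of it from Cd2, which B cells also express. The part of these cells in the results was not tested. The stromal list summed to 249.9 to 262 and 242 to 259. The plasma cell list, of which 8 of 9 genes were above the filter, summed to 16509 to 18127 and 18467 to 19710, but its members went both ways. Slamf7 (0.68), Mzb1 (0.29) and Jchain (0.15) were higher in the dark zone, Irf4 (-2.03) and Prdm1 (-1.37) were lower, and Xbp1 (-0.15), Sdc1 (-0.14) and Fkbp11 (0.08) did not pass. In bulk samples, fewer cells of a type and less RNA per cell cannot be told apart.

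The stretches upstream of the genes for both obligate subunit pairs, ligase IV with XRCC4 and Ku80 with Ku70, are shown because the results for these pairs are set side by side further on. Each is the 250 bases before an annotated transcription start in RefSeq on the build GRCm38.p6, written 5′ to 3′ on the gene's own strand, with the GC box GGGCGG, on either strand, in capitals.
Lig4, upstream start, chr8:9977681-9977930, minus strand: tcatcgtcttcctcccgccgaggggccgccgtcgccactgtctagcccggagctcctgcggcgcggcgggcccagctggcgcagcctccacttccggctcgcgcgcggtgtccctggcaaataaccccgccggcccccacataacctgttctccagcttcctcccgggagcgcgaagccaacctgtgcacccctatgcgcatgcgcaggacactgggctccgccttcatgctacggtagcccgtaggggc
Lig4, downstream start, chr8:9976312-9976561, minus strand: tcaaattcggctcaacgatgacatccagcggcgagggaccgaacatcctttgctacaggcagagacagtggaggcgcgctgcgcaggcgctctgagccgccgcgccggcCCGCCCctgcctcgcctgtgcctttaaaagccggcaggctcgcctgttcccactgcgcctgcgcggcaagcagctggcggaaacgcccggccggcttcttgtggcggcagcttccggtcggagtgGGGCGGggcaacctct
Xrcc4, chr13:90089609-90089858, minus strand: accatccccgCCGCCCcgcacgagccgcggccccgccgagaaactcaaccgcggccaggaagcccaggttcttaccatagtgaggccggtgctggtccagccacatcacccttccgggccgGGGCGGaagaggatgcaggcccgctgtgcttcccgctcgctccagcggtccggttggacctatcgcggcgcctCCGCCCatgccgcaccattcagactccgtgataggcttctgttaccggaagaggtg
Xrcc5, chr1:72307171-72307420, plus strand: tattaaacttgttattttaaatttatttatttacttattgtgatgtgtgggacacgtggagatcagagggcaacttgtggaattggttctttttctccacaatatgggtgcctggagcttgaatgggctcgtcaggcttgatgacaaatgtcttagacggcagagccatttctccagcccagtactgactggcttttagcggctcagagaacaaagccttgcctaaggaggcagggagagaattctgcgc
Xrcc6, chr15:82016119-82016368, plus strand: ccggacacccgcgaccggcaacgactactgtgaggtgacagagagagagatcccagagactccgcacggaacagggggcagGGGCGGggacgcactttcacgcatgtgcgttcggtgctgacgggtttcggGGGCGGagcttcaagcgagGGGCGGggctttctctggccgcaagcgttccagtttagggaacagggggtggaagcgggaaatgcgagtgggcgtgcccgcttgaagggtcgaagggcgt

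The RefSeq promoter table held 8 windows for 7 of the 10 genes. The GC box was found in 6 of these 8 windows, against 32.7% of the 32851 windows of the same length in the table. It occurred 2 times at the downstream start of Lig4, 3 times at Xrcc4 and 3 times at Xrcc6, and not at the upstream start of Lig4 or at Xrcc5. The CCAAT box, searched as CCAAT on both strands, was in 2 windows, those of Xrcc5 and Dclre1c, against 33.8% of all windows. The E box CACGTG, which reads the same on both strands, was in the window of Xrcc5 and in 6.02% of all windows. The cell cycle element TTTGAA (15.99% of all windows) and the FOXO motif GTAAACA (3.17%), searched on both strands, were in none of the 8. None of the motifs searched contains another, and a match is a description of the sequence and not of a factor bound there.

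Lig4, the ligase gene, was the 1 member that rose in the dark zone, by 3.31-fold, while Xrcc5, Xrcc4, Prkdc and Trp53bp1 fell there by 1.14-fold to 1.27-fold and Xrcc6, Rif1, Nhej1 and Poll did not pass the test on their brightest probe set. Tests used limma on log2 intensities of 10547 genes, each represented by its brightest probe set, with a Benjamini-Hochberg adjusted p under 0.05. Of these genes, 19.1% passed towards the dark zone and 24.8% towards the light zone, so 1 of 9 and 4 of 9 members are to be read against those shares. The 4 became 1 without dark zone array 1 and 2 without light zone array 2 or 4 or dark zone array 2 or 4. A call together with a difference of at least 2-fold towards the dark zone was made for 1.17% of genes, and Lig4 was among them. In 3 of 9 members the arrays of the zones did not overlap, against 41.3% of all genes tested. The median difference of the 9 members was -0.10 on the log2 scale, and that of all genes tested -0.01.

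**Figure D1:**
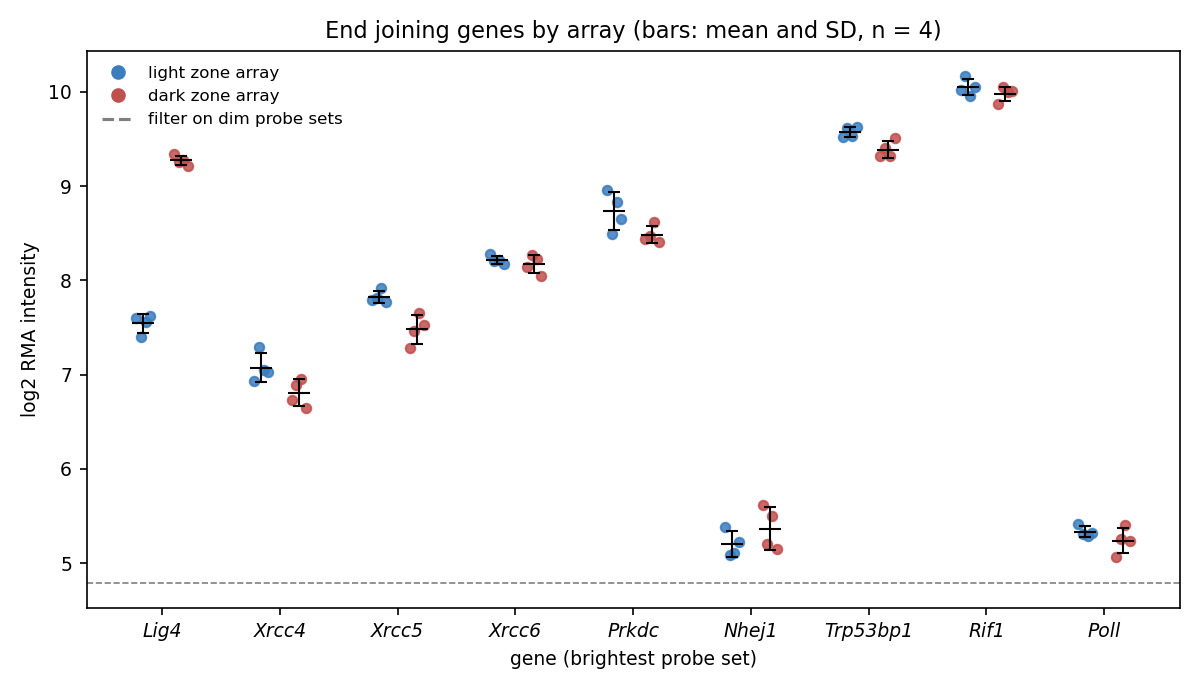
Log2 RMA intensity of the brightest probe set of each of the 9 measured end joining genes (vertical axis) by gene (horizontal axis), 1 point per array, with the mean and SD of the 4 light zone (blue) and 4 dark zone (red) arrays and the filter on dim probe sets as a dashed line. The zones are far apart for Lig4, adjacent without overlap for Xrcc5 and Trp53bp1, and overlap for the other 6 genes. Heights of different genes are not comparable, since probe sets bind with different strength.

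At the ligation step, Lig4 encodes DNA ligase IV, the enzyme that makes the final phosphodiester bond in end joining. Its 1 probe set had intensities of 194, 169, 188 and 198 in light zone arrays 1 to 4 and of 649, 614, 619 and 595 in dark zone arrays 1 to 4. The lowest dark zone array was thus about 3 times the highest light zone array. The means were 187 ± 12.8 and 619 ± 22.2 (SD, n = 4 each), a log2 difference of 1.73 with a standard error (SE) of 0.07 and a 95% interval of 1.58 to 1.87 (limma adjusted p = 3.4e-09). By the size of its rise Lig4 ranked 27 among all 10547 genes tested. Lyz1 read 154, 549, 578 and 1152 in the same dark zone arrays, and its part in the value of Lig4 was not tested. When any single array was left out the difference of Lig4 lay between 1.68 and 1.75.

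Xrcc4 encodes the scaffold that binds and stabilises ligase IV. Its brightest probe set read 123, 156, 132 and 131 in the light zone and 107, 119, 124 and 100.02 in the dark zone. The zones overlapped, because light zone array 1 lay below dark zone array 3. The difference was -0.27, with an SE of 0.09 (limma adjusted p = 0.030). A dimmer one, designed on the same transcript accession, read 105 to 135 in the light zone and 106 to 136 in the dark zone, a difference of -0.00 (95% interval -0.21 to 0.20), so the lower value rests on the brighter probe set. That probe set is of the _s_at type, whose probes can match several transcripts. The call was also lost without light zone array 2 (adjusted p = 0.086), dark zone array 1 (0.072) or dark zone array 4 (0.087), after a further quantile normalization (0.060) and with the mean of both probe sets (-0.14, adjusted p = 0.16).

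Nhej1 encodes XLF, which forms filaments with XRCC4 and helps to align the ends. Its intensities, near the filter, were 41.8, 34.0, 34.4 and 37.5 in the light zone and 48.9, 36.9, 45.3 and 35.5 in the dark zone. Dark zone arrays 1 and 3 were above all light zone arrays, and dark zone arrays 2 and 4 were among them. The difference was 0.17 with an interval of -0.07 to 0.40, which did not pass (limma adjusted p = 0.24). A second probe set was below the filter in all 8 arrays, at 16.6 to 18.0.

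Set side by side, Lig4 and Xrcc4, partners in 1 complex, had zone differences of 1.73 and -0.27. The log2 ratio of the Lig4 probe set to that of Xrcc4 lay between 0.11 and 0.66 in light zone arrays and between 2.32 and 2.60 in dark zone arrays. Such a ratio shows unequal change between zones and not a ratio of molecules. This and the other 2 partner pairs were chosen after the values were seen, so their ratios are given as a description. An exact permutation test run on the pairs is not used, because it cannot allow for that choice.

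Among the genes of end binding, Xrcc5 encodes Ku80, the larger subunit of the end-binding ring. Its 1 probe set read 222, 225, 242 and 219 in the light zone and 156, 177, 201 and 184 in the dark zone, so that all dark zone arrays were below all light zone arrays. Means were 227 ± 10.4 and 179.5 ± 18.8 (SD, n = 4 each), a difference of -0.34 (SE 0.08, 95% interval -0.52 to -0.17, limma adjusted p = 0.0037). Of the 4 members that were lower in the dark zone, Xrcc5 is the 1 whose call was kept under all 18 alternatives tried, with differences from -0.40 to -0.28. Since it has 1 probe set, the alternatives of probe set choice could not change its difference.

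Xrcc6 encodes Ku70, the other subunit of the ring. Its intensities were 310.0, 295, 297 and 289.7 in the light zone and 283, 309.7, 299.9 and 265 in the dark zone, and the zones overlapped. The difference was -0.04 with an interval of -0.18 to 0.10 (limma adjusted p = 0.61). A second probe set, below the filter at 13.9 to 19.4, had a difference of -0.24 (adjusted p = 0.064 over all probe sets), and the mean of both passed at -0.14 (limma adjusted p = 0.045). The log2 ratio of Xrcc5 to Xrcc6 lay between -0.48 and -0.30 in light zone arrays and between -0.86 and -0.52 in dark zone arrays.

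Prkdc encodes DNA-PKcs, the large kinase that Ku recruits. It read 497, 362, 456 and 403 in the light zone and 348, 356, 393 and 340.4 in the dark zone. Light zone arrays varied more than dark zone arrays (SD 0.20 against 0.09 on the log2 scale), and light zone array 2 lay below dark zone array 3. The difference of -0.25 (SE 0.09) passed by a small margin (limma adjusted p = 0.0496). It did not pass with a lower filter of the 25th percentile (adjusted p = 0.059) or none (0.063). The call was also lost without light zone array 1 (adjusted p = 0.14), 3 (0.12) or 4 (0.057), or without dark zone array 1 (0.10), 2 (0.092) or 4 (0.11).

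**Figure D2:**
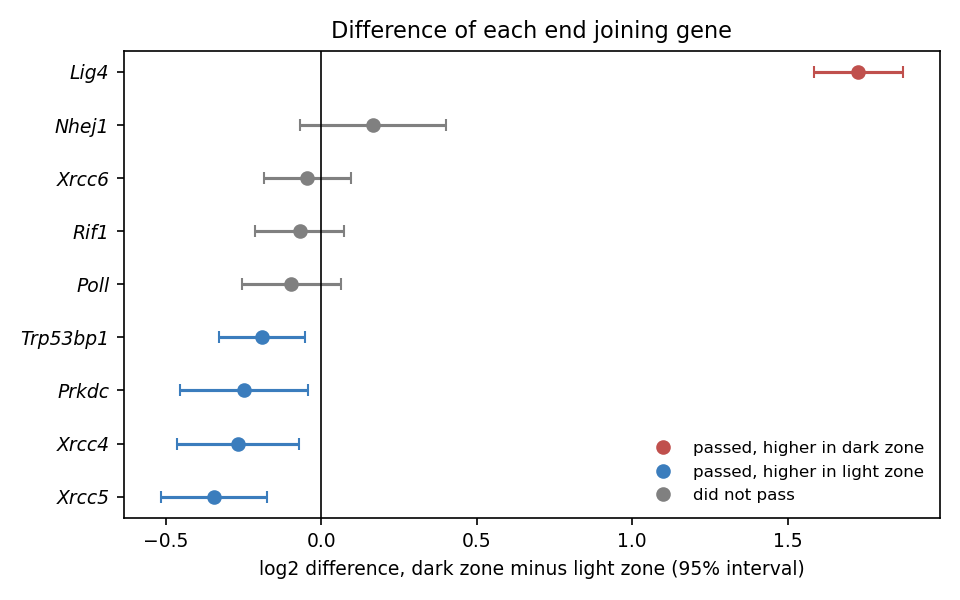
Log2 difference, dark zone minus light zone, of the 9 measured end joining genes (horizontal axis, points, with 95% intervals), ordered by size and coloured by the limma call. Lig4 lies at 1.73, and the other 8 genes lie between -0.34 and 0.17.

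For end protection, Trp53bp1 encodes 53BP1, a chromatin reader that collects at breaks and shields the ends. Its brightest probe set read 737, 786, 743 and 792 in the light zone and 638, 678, 638 and 729 in the dark zone. All dark zone arrays were below all light zone arrays, the nearest pair being 729 and 737. The difference was -0.19 (SE 0.06, limma adjusted p = 0.030). The other 5 probe sets of the gene had differences of -0.21 to -0.05, all of the same sign, and none passed in the fit over all 45037 probe sets. The brightest did not pass there either (adjusted p = 0.056). In the gene fit, the call was lost without light zone array 2 (adjusted p = 0.070) or 4 (0.074), or dark zone array 1 (0.070), 2 (0.051) or 3 (0.078), and with the mean of its probe sets (-0.13, adjusted p = 0.092) or the second brightest one (-0.06, adjusted p = 0.69).

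Rif1 encodes the effector that 53BP1 recruits to block resection, and also a regulator of replication timing. Its 4 probe sets gave different answers. The brightest, 1429491_s_at, read 1042, 1151, 995 and 1063 in the light zone and 939, 1059, 1021 and 1031 in the dark zone, overlapping, with a difference of -0.07 (95% interval -0.21 to 0.07, limma adjusted p = 0.42). The probe set 1429490_at, from the same transcript accession, had a difference of -0.15 and also overlapped.

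The other 2 Rif1 probe sets, each designed on a different expressed sequence, were higher in the dark zone with no overlap. Probe set 1437179_at read 730.3, 804, 707 and 744 in the light zone and 1016, 898, 977 and 988 in the dark zone, a difference of 0.38 (SE 0.07). In the fit over all probe sets its limma adjusted p was 0.0010. Probe set 1442939_at read 251, 220.1, 238 and 191 in the light zone and 371, 355, 377 and 315 in the dark zone, a difference of 0.66 (SE 0.09, limma adjusted p = 1.3e-04). Their differences exceeded that of the brightest probe set by 0.45 and 0.73. Their log2 ratios to the brightest probe set did not overlap between zones. For 1437179_at they were -0.52 to -0.49 in light zone arrays and -0.24 to 0.11 in dark zone arrays. For 1442939_at they were -2.48 to -2.05 and -1.71 to -1.34. The exact permutation p was 0.029 for both, the smallest possible with 4 arrays per zone. Adjusted over the 11 such comparisons within genes, which were added after the values were seen, this p was 0.16 for both. With that floor the adjusted test could hardly pass, so it does not decide whether the probe sets differ. With the mean of the 4 probe sets Rif1 was called higher in the dark zone at 0.20 (limma adjusted p = 0.0044), so its direction depends on the probe set taken. Where on the Rif1 transcripts each probe set lies was not analysed here.

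**Figure D3:**
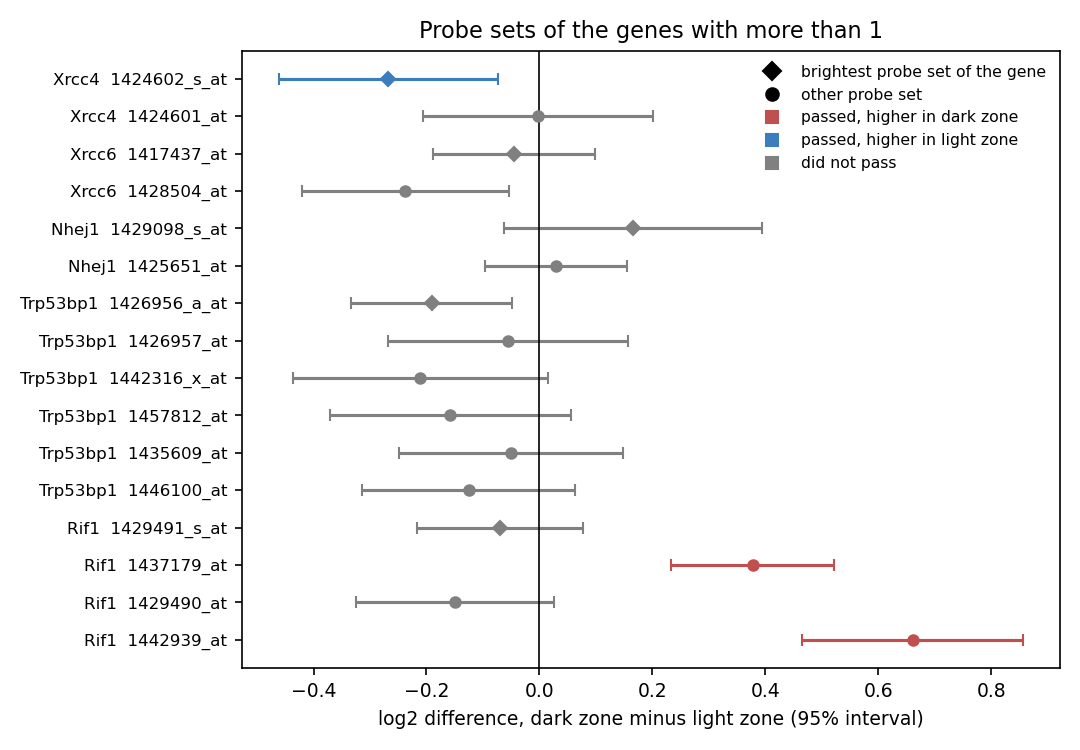
Log2 difference, dark zone minus light zone (horizontal axis, with 95% intervals), of the 16 probe sets of the 5 end joining genes that have more than 1, from a fit over all 45037 probe sets with no filter. Diamonds mark the brightest probe set of a gene and colours the call: the 2 red points are Rif1 probe sets at 0.38 and 0.66, beside 2 grey ones of the same gene at -0.07 and -0.15.

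Over all 20 probe sets of the members, the unfiltered fit called 3 higher in the dark zone (1 of Lig4 and 2 of Rif1) and 2 lower (1 of Xrcc5 and 1 of Xrcc4). Of all 45037 probe sets, 10.5% passed towards the dark zone and 11.3% towards the light zone. The 2 became 4 without light zone array 1, and 1 without light zone array 3 or 4 or dark zone array 1. The third partner pair, Trp53bp1 and Rif1 by their brightest probe sets, had differences of -0.19 and -0.07. Their log2 ratio lay between -0.55 and -0.42 in light zone arrays and between -0.68 and -0.50 in dark zone arrays, overlapping.

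For gap filling, Poll encodes DNA polymerase lambda, a family X polymerase that fills short gaps during joining. Its 1 probe set read 42.7, 39.8, 39.2 and 40.0 in the light zone and 33.5, 38.2, 42.3 and 37.8 in the dark zone, near the filter and overlapping. The difference was -0.10 with an interval of -0.26 to 0.06 (limma adjusted p = 0.31). Polm, the gene of the related polymerase mu, read 149 to 181 in the light zone and 108 to 132 in the dark zone without overlap, a difference of -0.37 (SE 0.08, limma adjusted p = 0.0032). Dntt, the gene of the template-independent member of that family, was below the filter in all 8 arrays (15.8 to 19.4). Rag1 and Rag2, the recombinase genes of early lymphocytes, were also below it.

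Other end joining factors went both ways. In a list of 12 genes, 9 were tested. Of these, 2 rose in the dark zone, 4 fell there and 3 did not pass, with a median of -0.13. These counts are to be read against the 19.1% and 24.8% of all genes tested that passed towards the dark and light zone. Parp3, a poly(ADP-ribose) polymerase that promotes end joining, read 508 to 529 in the light zone and 279 to 324 in the dark zone, a difference of -0.76 (SE 0.06, limma adjusted p = 1.8e-06). Aptx, which removes abortive ligation adducts, was at -0.46. The 2 genes higher in the dark zone were Tdp1 (0.29), which clears topoisomerase adducts, and the helicase gene Wrn (0.18). The count of 2 fell to 1 without light zone array 1, 3 or 4 or dark zone array 1, 2 or 4. It was also 1 with no filter, with each array centred on its median and with the alternative variance model. Paxx, which encodes a paralogue of XRCC4 and XLF, was at -0.13 and did not pass (limma adjusted p = 0.18).

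Alternative end joining is the route that joins resected ends by short homologies. There were 12 tested genes of resection and this route. Of these, 4 rose in the dark zone, 1 fell there and 7 did not pass, with a median of 0.10. Among all genes tested, 19.1% passed towards the dark zone and 24.8% towards the light zone. The 4 that rose were Xrcc1 (0.62), a scaffold of single-strand break repair, the nuclease gene Dna2 (0.45), the replicative ligase gene Lig1 (0.38) and Rad50 (0.37). Xrcc1 read 821 to 959.5 in light zone arrays and 1277 to 1509 in dark zone arrays. Exo1, a resection nuclease, was lower in the dark zone at -0.23, a call lost without light zone array 2, 3 or 4 or dark zone array 1 or 2. The call was also lost with the mean of probe sets and with the second brightest probe set. Lig3, the third ligase gene of vertebrates, was at -0.05 and did not pass (limma adjusted p = 0.70). Polq, whose product joins ends by microhomology, was below the filter.

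Break signalling genes numbered 17 tested. Of these, 9 rose in the dark zone, 1 fell there and 7 did not pass, with a median of 0.20. The shares of all genes tested were 19.1% towards the dark zone and 24.8% towards the light zone. H2ax encodes the histone that is phosphorylated around breaks. It read 1653 to 1767 in the light zone and 2302 to 2613 in the dark zone, a difference of 0.51 (SE 0.06, limma adjusted p = 3.0e-05). Next came Kmt5a (0.33), whose product methylates histone H4, the ubiquitin ligase gene Rnf169 (0.30) and the demethylase gene Kdm4a (0.29). The checkpoint kinase gene Chek2 was the 1 lower gene, at -0.21, a call lost without light zone array 2, 3 or 4 or dark zone array 2. A further quantile normalization also removed the call. Atm, the kinase at the head of the pathway, was at -0.08, and Rnf8 (0.20), Rnf168 (0.07) and Mdc1 (0.09) did not pass. The count of 9 was 6 to 8 when single arrays were left out.

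Downstream of 53BP1 and RIF1 act the complexes shieldin and CST. Shieldin caps the protected end and CST brings DNA polymerase alpha to fill it in. Of the 14 tested genes of these complexes and their helpers, 3 rose in the dark zone, 3 fell there and 8 did not pass, with a median of 0.07. Over all genes tested, 19.1% passed towards the dark zone and 24.8% towards the light zone. Mad2l2, which encodes the shieldin subunit REV7, read 204 to 242 in the light zone and 152 to 177 in the dark zone, a difference of -0.46 (SE 0.07, limma adjusted p = 2.8e-04). Shld1 (-0.19) and the CST gene Ten1 (-0.30) were also lower in the dark zone. Shld2 (0.16), Stn1 (0.20) and Ctc1 (0.04) did not pass. The 3 genes higher in the dark zone encode none of these subunits: Pola1 (0.65), the catalytic subunit of polymerase alpha and a replication gene, the histone chaperone gene Asf1a (0.60) and Ezh2 (0.25). The count of 3 higher in the dark zone became 5 after a further quantile normalization and with array weights. That of 3 lower there was 2 to 4 over the alternatives.

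A list drawn up for the start of switching had 10 tested genes. Of these, 4 rose in the dark zone, 2 fell there and 4 did not pass, with a median of 0.17. The step of switching at which each product acts was not analysed here. Hmces, which encodes a protein that crosslinks to abasic sites in single-stranded DNA, read 2482 to 2744 in the light zone and 5953 to 6427 in the dark zone. Its difference of 1.23 (SE 0.06, limma adjusted p = 1.7e-08) was the largest of the partner genes. The uracil glycosylase gene Ung (-0.34) and the abasic endonuclease gene Apex1 (-0.83) were lower in the dark zone, and Pms2 (0.36) was higher. Over all these lists together, 62 genes were tested, of which 22 rose in the dark zone, 11 fell there and 29 did not pass, to be read against the shares of 19.1% and 24.8% of all genes. The 11 fell to 7 without light zone array 2, light zone array 4 or dark zone array 2.

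**Figure D4:**
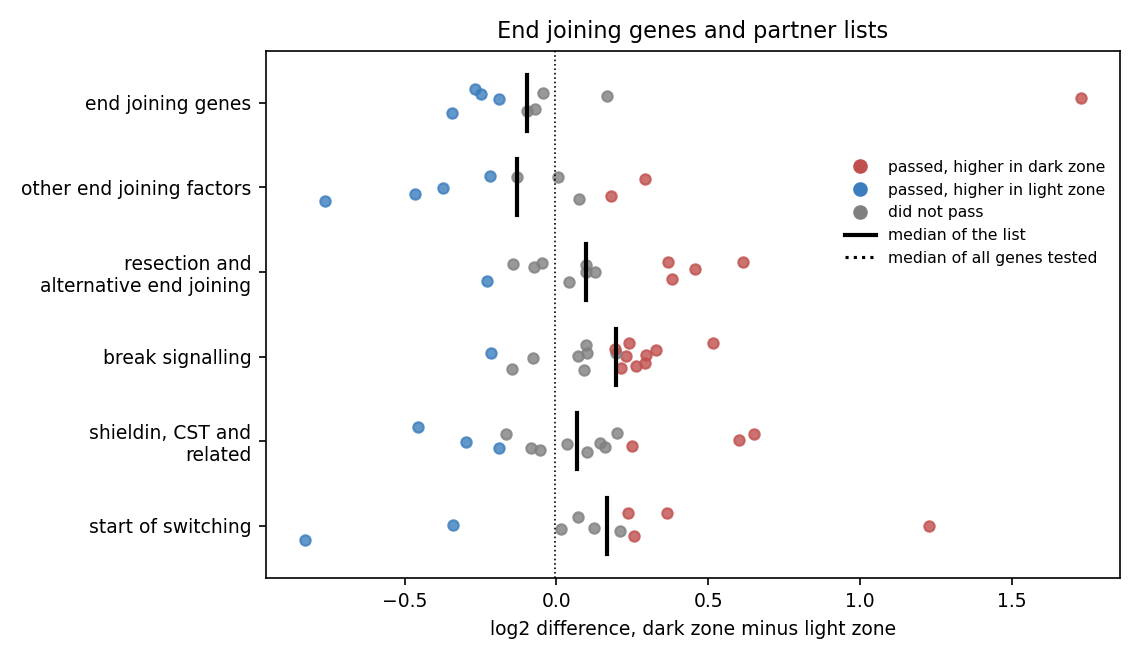
Log2 difference, dark zone minus light zone (horizontal axis), of every tested gene of the end joining genes and of the 5 partner lists, 1 point per gene, coloured by call, with the median of each list as a bar and the median of all genes tested (-0.01) as a dotted line. Lig4 at 1.73 and Hmces at 1.23 are the points farthest to the right.

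Genes of late cell cycle phases moved with the zones at the same time. All 14 tested genes of a G2 and M phase list were higher in the dark zone, with a median of 1.13 and a range of 0.55 to 1.96. The summed level of that list was 12609 to 13841 in light zone arrays and 26812 to 28771 in dark zone arrays. Of 15 replication genes, 4 rose, 1 fell and 10 did not pass, with a median of 0.08. Both lists are to be read against the shares of all genes tested, 19.1% towards the dark zone and 24.8% towards the light zone. The part of cell cycle phase in the values of Lig4, H2ax and the other genes above was not tested.

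Among genes outside the list, the 5 whose log2 values over the 8 arrays were most like those of Lig4 were Mtf2, Scn11a, Nt5e, Tcea1 and Otub2, with Pearson correlations of 0.999, 0.997, 0.997, 0.997 and 0.997. The arrays form 2 clusters, the zones, so these values mostly show that each gene differs between zones with little spread within them. Their zone differences were 1.34, 2.40, 1.53, 1.00 and 2.27. Mtf2 encodes a Polycomb-associated protein and Tcea1 a transcription elongation factor.

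Genes on the other strand with a promoter window close to that of a member were also read. In the RefSeq promoter table, the whole window of such a gene lies within 1000 bases of a whole window of Lig4 (Abhd13), Xrcc4 (Tmem167), Xrcc6 (Desi1) and Dclre1c (Meig1). Distances between the starts themselves were not computed. Meig1 was not tested, and Dclre1c has no value here. Abhd13 was at 0.23 and did not pass (limma adjusted p = 0.067), beside 1.73 for Lig4. Tmem167 was lower in the dark zone at -0.33 (limma adjusted p = 8.8e-04), beside -0.27 for Xrcc4. Desi1 was higher in the dark zone at 0.21 (limma adjusted p = 0.047), beside -0.04 for Xrcc6. These neighbours were looked up after the values were seen, and the differences between neighbours were not tested.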

How the data were processed

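The values are those of 8 Affymetrix arrays, whose RNA was labelled with a 3′ IVT Express kit, according to the labels. The deposited intensity values are RMA values (background correction, quantile normalization and probe summary) on a linear scale, per the submitters' processing notes and the range of the values; no version or detection call was used. Quantile normalization hides changes in total RNA per cell. Folds of dim genes are compressed in such array values. The log2 of each value was taken with no offset. Probe sets with 1 symbol in the platform annotation (34945) were named through gene identifiers of GRCm38.p6, and each of 18193 genes was represented by its brightest probe set and tested if its mean reached the 50th percentile (27.8). Zones were compared with limma 3.58.1 in R 4.3.3 (lmFit, eBayes, two-sided, Benjamini-Hochberg over 10547 genes). A second fit took all 45037 probe sets. The scripts were tested on simulated data. Members and lists were chosen with earlier results of these data known. All 10 members are named, then in each partner list up to 4 called genes with the largest differences and those called against its majority, and the 5 genes most like the member with the largest difference; other list genes were named after their values were seen. Alternatives varied the filter, probe set choice, normalization, offset, variance model, array weights, replicate block and arrays. Figures were drawn with matplotlib 3.10.9.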

Additional observations from a re-analysis of the deposited data

How the results depend on the processing

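Lig4 and Xrcc5 kept their call and direction under all 18 alternatives, Lig4 at 1.65 to 1.75 and Xrcc5 at -0.40 to -0.28. Each has 1 probe set, so the alternatives of probe set choice could not change their differences. The 1 member called higher in the dark zone became 2, with Rif1, when probe sets were averaged or the second brightest was taken. The 4 members called higher in the light zone became 1 with the second brightest probe set, and 1 to 3 when single arrays were left out. Partner genes called higher in the light zone (11) were 7 to 10 when single arrays were left out. Member probe sets called higher in the light zone (2) became 4 with each array centred on its median, 1 with array weights, and 1 to 4 when single arrays were left out. Counts over all genes stayed within 1.5 times, at 1706 to 2149 for the dark zone and 1941 to 2835 for the light zone. Same-numbered arrays of the zones correlated in their deviations at 0.06 to 0.24, each light zone array best with its own number, but nothing in the labels pairs them. With the replicate number as a block, 1 member was called towards the dark zone and 4 towards the light zone, as were 2088 and 2699 of all genes. The number of arrays limits the precision, and Nhej1 and Poll lie near the filter, where folds are compressed. The partner pairs and the comparisons of probe sets within a gene were added after seeing the data.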
